A study of Mus musculus with 4 samples.

Results

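Immediate early factors are transcription regulators whose genes are switched on within minutes of a signal, with no need for new protein. The 10 described here were chosen by name: Fos, Fosl2, Jun, Junb, Jund and Atf3 of the AP-1 group, the zinc-finger factor Egr1, the nuclear receptors Nr4a1 and Nr4a3, and Btg2, an antiproliferative cofactor that is induced with them. All 10 were found among the 32868 gene names of the files, with 1 row each, and 9 of them reached at least 0.5 RPKM in at least 2 libraries, the limit for testing. RPKM is the read count divided by gene length and by the reads of the library, so levels can be compared between genes.

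RNA came from the tibialis anterior, a fast leg muscle, of C57BL/6 mice at postnatal day 21. The Nf1-KO group (genotype Nf1flox/flox/Myf5+) and the Het group (Nf1flox/+/Myf5+) had 2 libraries each, so the controls also carried 1 floxed Nf1 allele and the Myf5+ label. In crosses of this kind Myf5 drives Cre in muscle precursors, so other cells of the muscle would keep Nf1; the labels do not name the Cre. Nothing in the labels says that the 2 libraries of a group were separate animals, and p-values measure the spread between these libraries only.

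AP-1 is a dimer of a Jun protein with a Fos, Jun or ATF partner, and the partners differ in how strongly they activate: Jun and Fos are strong activators, while Junb, Jund and Fosl2 are often weaker or act differently by context. Ras signalling through ERK induces Fos and Egr1 by way of SRF and its ETS partners, and cAMP and calcium signals induce Nr4a1 and Fos by way of CREB. In muscle these genes are known to respond to contraction, injury and the handling of tissue, which is why each library is given. Neurofibromin, the Nf1 product, turns Ras off.

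Nf1 itself was 1.09 and 1.01 RPKM in Het and 0.89 and 0.85 RPKM in Nf1-KO. Its log2 fold change was -0.18 (limma, SE 0.057, adjusted p 0.041), so the targeted gene was lower as labelled. The size depends on the scale: at a pseudocount of 0.1 the log2 fold change was -0.33 (limma adjusted p 0.045), and in the authors' deposited table it was -0.38 (adjusted p 0.0026). The limma call on log2(RPKM + 1) was lost when any 1 of the 4 libraries was left out (log2 fold change -0.21 to -0.15). Depth, estimated from the values, was 36500000 and 58200000 reads for the Het and 47000000 and 50800000 for the Nf1-KO libraries. Fold changes are on the log2(RPKM + 1) scale after scaling between libraries, which understates changes of low genes, and are Nf1-KO against Het throughout. Without that scaling all genes moved up by a median of 0.07 and the share of higher genes among the calls was 66.6% in place of 49.5%. Muscle fibre markers were abundant, with Acta1 at 12305 to 15930 RPKM. In bulk muscle, fewer cells of a type and less RNA per cell cannot be told apart.

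The factors did not move as a block: Egr1, Junb, Fosl2, Btg2, Atf3, Nr4a1 and Jund rose, while Fos and Jun fell. All 9 that could be tested passed a limma adjusted p of 0.05, of which 7 were higher and 2 lower. Over all 10690 genes tested, 50.3% passed, 24.9% higher and 25.4% lower. The median log2 fold change of the 9 was 0.62, against 0.00 over all genes tested, and the median absolute change was 0.62 against 0.16. The factors were chosen with earlier results of these data known. Their values beside those of all genes are thus a description and not a test. The 2 groups did not overlap for any of the 10 in the values as deposited, nor for any of the 9 after scaling, and this held for 77.3% and 76.3% of all genes tested. In the authors' deposited table the same 7 were higher and the same 2 lower past an adjusted p of 0.05, a threshold that 31.7% of its 13984 genes passed, 15.0% higher and 16.6% lower.

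**Figure D1:**
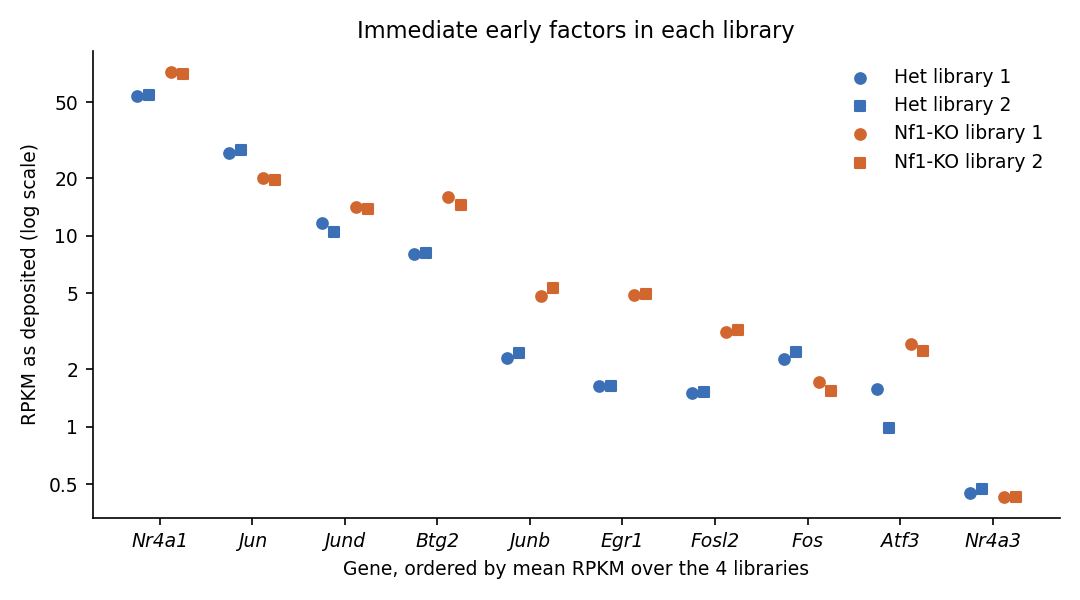
RPKM as deposited (log axis) of the 10 factors in each of the 4 libraries, blue for Het and orange for Nf1-KO, with circles for library 1 and squares for library 2. Egr1 sits at 1.63 and 1.64 RPKM in Het and at 4.92 and 4.95 RPKM in Nf1-KO, and the groups lie apart for each gene, with Fos, Jun and Nr4a3 lower in Nf1-KO.

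The promoters of Fos and Jun, which fell, and of Junb, Btg2 and Nr4a1, which rose, are shown because the letters just upstream of the start site could be compared across the 2 directions. They are the 180 bases before the start, 5′ to 3′ on the gene's strand, from RefSeq on build GRCm38.p6 (the submitters' processing notes name mm9, so these coordinates apply to the printed sequence only). Capitals mark TGACG on either strand, the core of the cAMP response element that CREB and ATF proteins bind (the full element TGACGTCA contains it), and in Jun the site TGACATCA, known to bind Jun with Atf2.
Fos, chr12:85473710-85473889, plus strand: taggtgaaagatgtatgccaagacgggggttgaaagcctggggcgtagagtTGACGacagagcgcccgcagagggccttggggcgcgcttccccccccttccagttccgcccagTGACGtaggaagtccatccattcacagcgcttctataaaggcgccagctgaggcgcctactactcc
Jun, chr4:95052223-95052402, minus strand: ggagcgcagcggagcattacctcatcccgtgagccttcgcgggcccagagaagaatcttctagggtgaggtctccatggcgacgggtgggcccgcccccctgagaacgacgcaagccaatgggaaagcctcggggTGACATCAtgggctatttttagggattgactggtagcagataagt
Junb, chr8:84978749-84978928, minus strand: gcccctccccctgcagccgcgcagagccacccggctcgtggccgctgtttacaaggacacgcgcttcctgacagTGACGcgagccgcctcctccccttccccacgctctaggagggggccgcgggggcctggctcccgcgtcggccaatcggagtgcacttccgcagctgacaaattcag
Btg2, chr1:134079156-134079335, minus strand: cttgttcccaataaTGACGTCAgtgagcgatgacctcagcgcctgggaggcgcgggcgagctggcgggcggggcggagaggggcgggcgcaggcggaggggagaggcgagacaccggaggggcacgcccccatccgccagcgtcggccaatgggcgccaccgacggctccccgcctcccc
Nr4a1, chr15:101266666-101266845, plus strand: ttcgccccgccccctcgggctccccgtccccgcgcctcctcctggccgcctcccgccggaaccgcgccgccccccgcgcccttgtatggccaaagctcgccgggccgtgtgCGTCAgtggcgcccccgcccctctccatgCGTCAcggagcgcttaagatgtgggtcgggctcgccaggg

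Of the 10 factors, 9 were matched in the promoter table, and Egr1 was not. Both directions held TGACG: it lay in the 250 bases upstream of Fos, which fell, and of Junb, Nr4a1, Atf3 and Btg2, which rose. With Nr4a3 that made 6 of the 9, against 17.8% of 32851 promoter windows of the same length. In Fos the copies start 129 and 66 bases before the start site, and in Nr4a1 there are 4, at 233, 213, 69 and 40 bases. The full TGACGTCA was found in Btg2 alone, 166 bases upstream, against 1.55% of all windows. The Egr site GCGNGGGCG was found in Fosl2, Nr4a1 and Btg2, against 4.70% of all windows, where its letters do not overlap TGACG. TGACATCA, searched after the Jun sequence had been seen, was found in Jun alone, 45 bases upstream, against 2.93% of windows. The AP-1 site TGANTCA, the NBRE AAAGGTCA that Nr4a1 binds and the CArG box of SRF were in none of the 9 windows, and 6.75%, 1.34% and 1.47% of all windows held them. Bases further than 250 upstream were not searched and Egr1 had no window. The search therefore cannot show that these genes lack such sites. A match is a run of letters and not a measured binding site.

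Among the Jun genes, Jun, a strongly activating partner in AP-1, fell. It was 27.11 and 28.31 RPKM in Het and 20.02 and 19.60 RPKM in Nf1-KO. Both Nf1-KO libraries lay below both Het libraries, and the Nf1-KO mean was 0.715 of the Het mean. On the log2 scale the change was -0.55 (limma, SE 0.034, adjusted p 4.7e-05).

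Junb, which is induced with Fos and is a weaker activator than Jun, moved the other way. It was 2.29 and 2.44 RPKM in Het and 4.81 and 5.30 RPKM in Nf1-KO, 2.14 times as high by the means. The log2 fold change was 0.77 (limma, SE 0.059, adjusted p 1.3e-04). Neither Nf1-KO library came near the Het range.

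Jund, the member of the family that is expressed most steadily in resting cells, rose slightly. It was 11.68 and 10.43 RPKM in Het and 14.08 and 13.76 RPKM in Nf1-KO. Its log2 fold change was 0.22 (limma, SE 0.054, adjusted p 0.015), the smallest change of the 9. The Het libraries differed by 0.15 on the log2 scale, and without Het library 2 the log2 fold change was 0.14 (limma adjusted p 0.048). With no filter on low values it did not pass (limma adjusted p 0.092). In GENCODE M21 the antisense gene Gm11175 shares 48.3% of the 50-base words of the Jund transcripts, and the kit named in the labels does not mark strand, so reads of the pair cannot be told apart. Jun shares 5.83% of its words with antisense Junos and Junb 5.77% with Prdx2 on the other strand.

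The makeup of the Jun genes differed between the groups. Their summed level was 41.08 and 41.18 RPKM in Het and 38.91 and 38.66 RPKM in Nf1-KO. Jun made up 66.0% and 68.7% of it in the Het libraries and 51.5% and 50.7% in the Nf1-KO libraries, a difference of -16.3 percentage points in the mean. The share of Junb was 5.57% and 5.93% in Het and 12.4% and 13.7% in Nf1-KO. That of Jund was 28.4% and 25.3% in Het and 36.2% and 35.6% in Nf1-KO. These shares lie within a library, so scaling between libraries cannot move them. With 2 libraries against 2 the exact two-sided permutation test cannot go below 0.333, the value each of these shares gave. Jun and Junb alone gave the same direction, with Jun at 92.2% and 92.1% of their sum in Het and 80.6% and 78.7% in Nf1-KO.

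**Figure D2:**
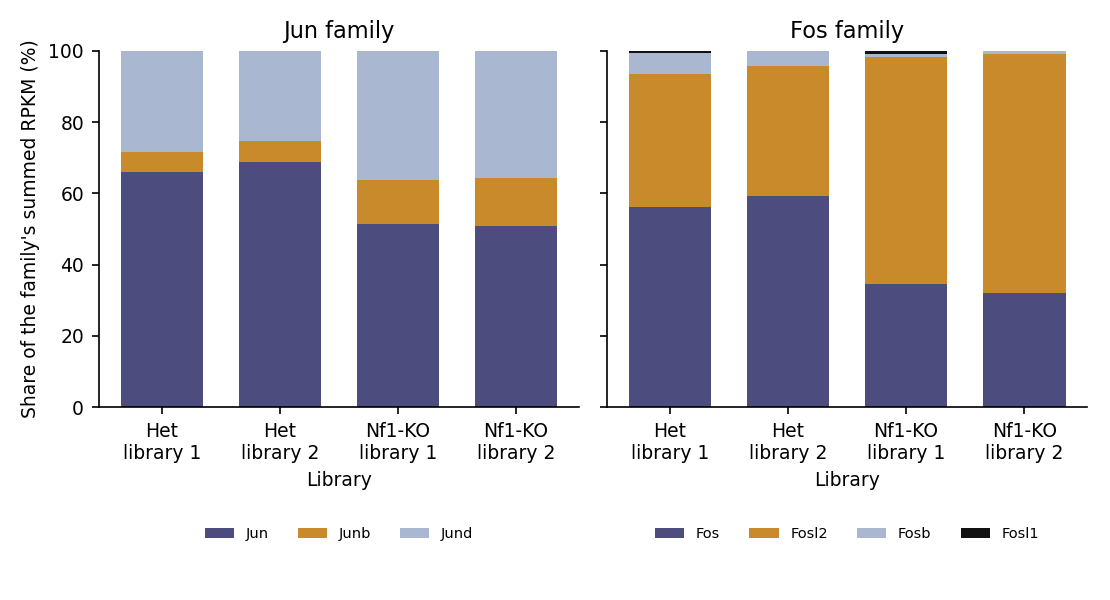
Share (%) of each gene in the summed RPKM of the Jun family (left) and the Fos family (right), with 1 stacked bar per library. Jun makes up 66.0% and 68.7% in Het and 51.5% and 50.7% in Nf1-KO, and Fosl2 37.3% and 36.5% in Het and 63.5% and 66.9% in Nf1-KO.

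Fos, whose protein pairs with Jun and is made briefly after a stimulus, fell. It was 2.26 and 2.47 RPKM in Het and 1.71 and 1.54 RPKM in Nf1-KO. Its log2 fold change was -0.42 (limma, SE 0.063, adjusted p 0.0022), and the groups did not overlap.

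Fosl2, also called Fra-2, a longer-lived partner that lacks the strong activation region of Fos, rose. It was 1.5 and 1.52 RPKM in Het and 3.13 and 3.22 RPKM in Nf1-KO, 2.10 times as high by the means. The change was 0.67 on the log2 scale (limma, SE 0.051, adjusted p 1.2e-04).

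Fosb and Fosl1, the other Fos genes, were under the limit for testing. Fosb was 0.24 and 0.18 RPKM in Het and 0.05 RPKM in each Nf1-KO library. With no filter on low values, where 24.0% of 18959 genes passed, its log2 fold change was -0.22 (limma adjusted p 0.021). The authors' deposited table gave -2.20 with an adjusted p of 0.0025 on a mean normalized count of 23.5. Fosl1 did not exceed 0.04 RPKM. Within the summed level of the 4 Fos genes, Fos made up 56.2% and 59.2% in Het and 34.7% and 32.0% in Nf1-KO, and the ratio of Fosl2 to Fos was 0.664 and 0.615 in Het and 1.83 and 2.09 in Nf1-KO.

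Atf3, a stress-induced ATF that pairs with Jun proteins, rose but was the least repeatable. It was 1.57 and 0.98 RPKM in Het and 2.71 and 2.50 RPKM in Nf1-KO. The groups did not overlap, yet the Het libraries differed by 0.38 on the log2 scale, the widest gap of the 9. On the log2 scale the change was 0.62 (limma, SE 0.12, adjusted p 0.0072). With no filter on low values the limma adjusted p was 0.069, so the call was lost. For Atf3 the authors' deposited table had 0.95 on the log2 scale (SE 0.23, adjusted p 3.1e-04).

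Egr1, the zinc-finger factor that ERK induces through SRF, showed the largest change of the 9. It was 1.63 and 1.64 RPKM in Het and 4.92 and 4.95 RPKM in Nf1-KO, 3.02 times as high by the means. The 2 libraries of each group were nearly equal. The log2 fold change was 1.10, with a 95% interval of 0.99 to 1.22 and a limma adjusted p of 1.2e-05, and 98.5% of the genes tested changed by less. In the authors' deposited table, which adds no pseudocount to RPKM, it was 1.49 (SE 0.14).

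Of 6 other Egr, Nr4a and Nab genes only Nab1 and Nab2 could be tested, and Egr2 and Egr3 were low. Egr2 was 0.11 and 0.24 RPKM in Het and 0.57 and 0.48 RPKM in Nf1-KO. Egr3 was 0.08 and 0.07 RPKM in Het and 0.23 and 0.25 RPKM in Nf1-KO. The limma adjusted p with no filter on low values was 0.046 for Egr2 and 0.0089 for Egr3, and the authors' deposited table had log2 fold changes of 1.41 and 1.57. Egr4 was listed at 0 in all 4 libraries. Of the corepressors that hold Egr proteins in check, Nab2 was 0.39 and 0.41 RPKM in Het and 0.62 and 0.80 RPKM in Nf1-KO. It reached the limit for testing only through Nf1-KO, so its limma adjusted p of 0.024 supports no call, and with no filter it did not pass (limma adjusted p 0.074). Its exons overlap those of Stat6 and Nemp1. Nab1 did not pass (limma adjusted p 0.22).

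Nr4a1, or Nur77, a nuclear receptor that acts without a known hormone and is linked to glucose use in muscle, was the most abundant of the factors. It was 54.32 and 54.50 RPKM in Het and 72.24 and 70.91 RPKM in Nf1-KO. The rise was modest and tight, 1.32 times by the means. The change was 0.30 on the log2 scale (limma, SE 0.023, adjusted p 1.3e-04).

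Nr4a3, or Nor-1, did not share that rise. It was 0.45 and 0.47 RPKM in Het and 0.43 RPKM in both Nf1-KO libraries, under the limit for testing. With no filter its log2 fold change was -0.06 (limma adjusted p 0.24), and the authors' deposited table gave -0.20 (SE 0.26, adjusted p 0.63). Nr4a2, or Nurr1, at 0.09 and 0.10 RPKM in Het and 0.39 and 0.35 RPKM in Nf1-KO, was higher with no filter (limma adjusted p 0.0063) and in the authors' deposited table (log2 fold change 1.86, adjusted p 7.2e-04).

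Btg2, which slows cell division and is a target of p53 as well as of growth signals, rose. It was 8.05 and 8.13 RPKM in Het and 15.96 and 14.57 RPKM in Nf1-KO, 1.89 times as high by the means. On the log2 scale the change was 0.75 (limma, SE 0.049, adjusted p 6.3e-05). Its 2 Nf1-KO libraries differed by 0.13 on the log2 scale, the wider gap of its groups.

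**Figure D3:**
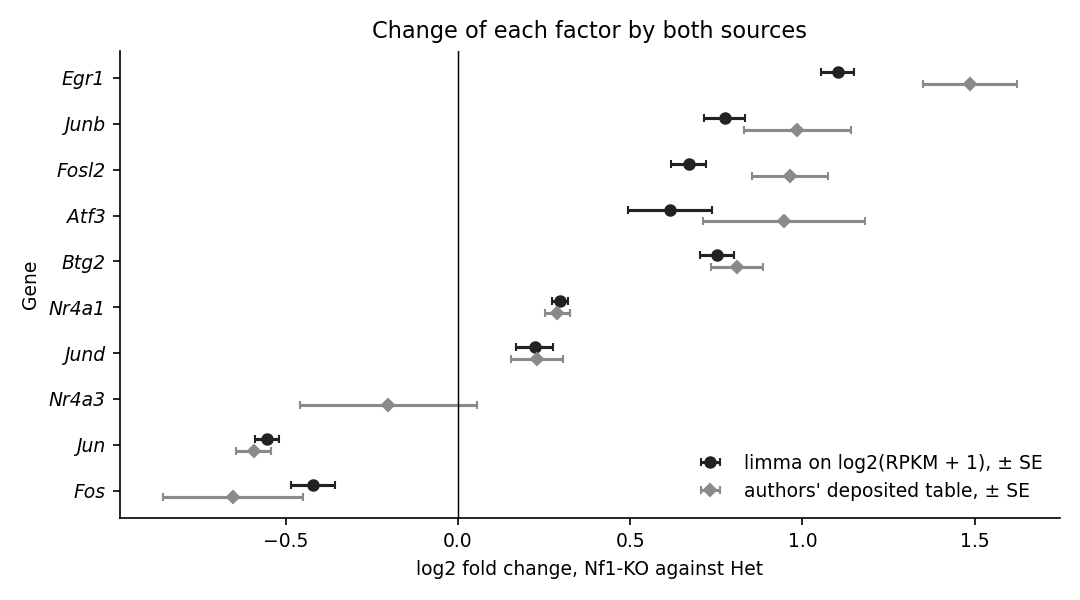
Log2 fold change of each factor, Nf1-KO against Het, with standard errors, from limma on log2(RPKM + 1) (black circles) and from the authors' deposited table (grey diamonds). Both place Egr1 highest (1.10 and 1.49) and Jun and Fos below 0, and Nr4a3, which has the deposited value alone, spans 0.

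Spread within groups was small beside these changes. The absolute log2 fold change was 1.5 times the larger replicate difference for Jund, 1.62 times for Atf3 and at least 4.49 times for the other 7. The median replicate difference of the 9 was 0.063 in Het and 0.033 in Nf1-KO on the log2 scale, against 0.052 and 0.048 over all genes tested. Mean normalized counts of the factors in the authors' deposited table ran from 120 for Nr4a3 through 195 for Atf3 and 200 for Fos to 7366 for Nr4a1, so the low genes carry the larger counting error.

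**Figure D4:**
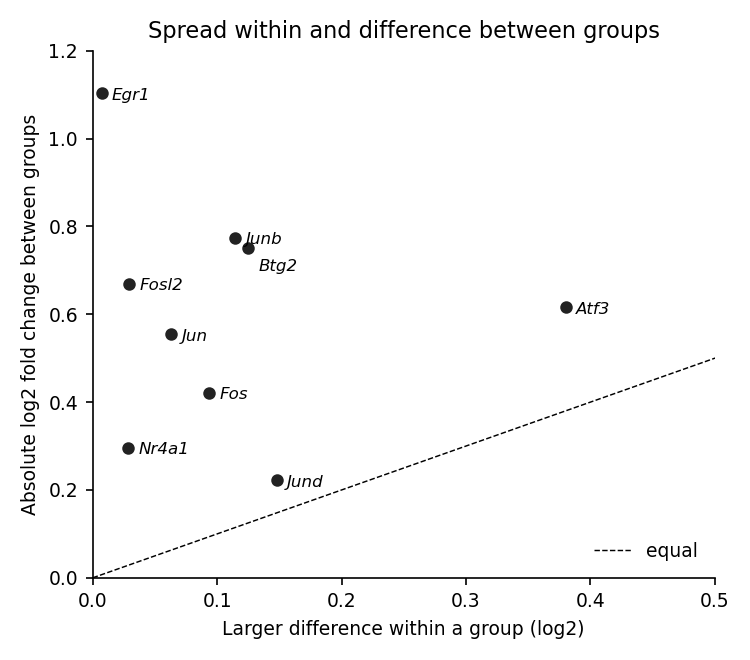
Absolute log2 fold change between groups (vertical) against the larger of the 2 replicate differences (horizontal) for the 9 tested factors, with a dashed line where they are equal. Every point lies above the line, and Jund and Atf3 lie nearest to it in ratio (1.5 and 1.62).

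The order of levels changed with the makeup. In Het, Nr4a1, Jun, Jund and Btg2 led, and Junb and Fos followed with the same mean of 2.37 RPKM and overlapping ranges. In Nf1-KO, Btg2 at 15.3 ± 0.98 RPKM (SD, n = 2) stood just above Jund at 13.9 ± 0.23 RPKM. Junb at 5.06 ± 0.35 RPKM and Egr1 at 4.94 ± 0.021 RPKM did not differ beyond their spread. Fos, at 1.63 ± 0.12 RPKM, was then below all of the factors but Nr4a3.

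The library profiles nearest to that of Nr4a1 among 4822 other genes of at least 5 RPKM, by Euclidean distance of centred log2 values over the 4 libraries, were those of Pde4dip, Mecr and Mat2b. Those nearest to Egr1 were Pdk4, Fabp3 and Echs1, with log2 fold changes of 1.12, 1.11 and 1.11. Over 4 libraries in 2 groups this distance picks genes of like fold change, so that likeness follows from the method. Shared regulation was not tested.

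Other AP-1 and Maf genes were split as well. Of 13 listed, 8 were tested, with 3 higher, 3 lower and 2 not passing, and a median of -0.04 (0.01 over all 13 with no filter). The shares over all genes tested were 24.9% higher and 25.4% lower. Maff, a small Maf that lacks an activation region, rose from 1.34 and 1.28 RPKM to 4.23 and 3.79 RPKM (log2 fold change 1.05, limma adjusted p 4.3e-05). Mafk rose by 0.60 and Jdp2, a Jun-binding repressor, by 0.41, while Mafg fell by 0.48 on the log2 scale. Atf2 and Atf7 did not pass, at 0.03 and -0.10. Exons of Mafk, Mafg and Jdp2 overlap those of other genes.

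Other immediate early genes leaned upward. All 35 listed were tested, and 22 were higher, 7 lower and 6 did not pass (median 0.38), beside 24.9% higher and 25.4% lower over all genes tested. Sik1, a kinase induced by cAMP, rose from 3.01 and 2.97 RPKM to 11.73 and 12.15 RPKM (log2 fold change 1.62, limma adjusted p 1.6e-06). Zfp36l1, an RNA-decay factor whose exons overlap a noncoding RNA, rose by 1.03, Ier3 by 1.01 and Nfil3 by 0.86 on the log2 scale. Dusp1, a stress-induced phosphatase that turns off MAP kinases, was 30.77 and 29.63 RPKM in Het and 31.80 and 32.39 RPKM in Nf1-KO (log2 fold change -0.01, 95% interval -0.08 to 0.07). It was singled out after its values were seen, and its exons overlap those of Ergic1.

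Upstream genes were more often lower than higher, where 24.9% of all genes tested were higher and 25.4% lower. Of 9 factors that act on these promoters, 5 were lower and 1 higher, with a median of -0.17. Mkl1, the actin-regulated coactivator of SRF, fell from 9.71 and 9.73 RPKM to 4.10 and 3.64 RPKM (log2 fold change -1.22, limma adjusted p 1.4e-05), and Srf fell by 0.34. Elk3 rose by 0.29, and its exons overlap those of Cdk17. Of 13 MAP kinase genes tested, 6 were lower, none higher and 7 did not pass, with a median of -0.13, and Mapk10 was listed at 0. Mapk9, a JNK whose protein phosphorylates Jun, fell by 0.41 and Mapk14 (p38) by 0.32 on the log2 scale. These are transcript levels and say nothing of kinase activity.

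Genes long used as readouts of AP-1 were split, and several were near 0 in one group. The limit of 0.5 RPKM let Mmp13, Mmp9, Timp1 and Ccl2 in only through Nf1-KO, where they are high, so the 10 genes are counted with no filter on low values. Of these, 4 were higher, 1 lower and 5 did not pass, with a median of 0.09, where 11.7% of all genes were higher and 12.2% lower. Mmp13, a collagenase, was 0.01 and 0.06 RPKM in Het and 8.48 and 8.75 RPKM in Nf1-KO, and Mmp9, a gelatinase, was 0.13 and 0.06 RPKM in Het and 3.41 and 3.80 RPKM in Nf1-KO. With no filter their log2 fold changes were 3.17 and 2.02 (limma adjusted p 4.9e-04 and 0.0014), on a scale that understates changes from so low a level. At a pseudocount of 0.1, with the filter, they were 5.98 and 4.20, and the authors' deposited table has 7.67 and 5.20. Timp1, an inhibitor of these proteases, was higher by 1.25 with no filter (limma adjusted p 0.0028), by 2.89 at a pseudocount of 0.1 and by 3.46 in the authors' deposited table. The chemokine Ccl2 was higher by 0.68 with no filter (limma adjusted p 0.021), by 2.05 at a pseudocount of 0.1 and by 2.63 in the authors' deposited table. Mmp3, a stromelysin, went the other way, from 0.12 and 0.15 RPKM in Het to 0.05 and 0.04 RPKM in Nf1-KO (log2 fold change -0.13 with no filter, limma adjusted p 0.026), and did not pass in the authors' deposited table (adjusted p 0.22). Plau, Plaur, Cd44, Hmox1 and Il6 did not pass, at 0.01, 0.06, 0.12, 0.03 and -0.01 with no filter.

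**Figure D5:**
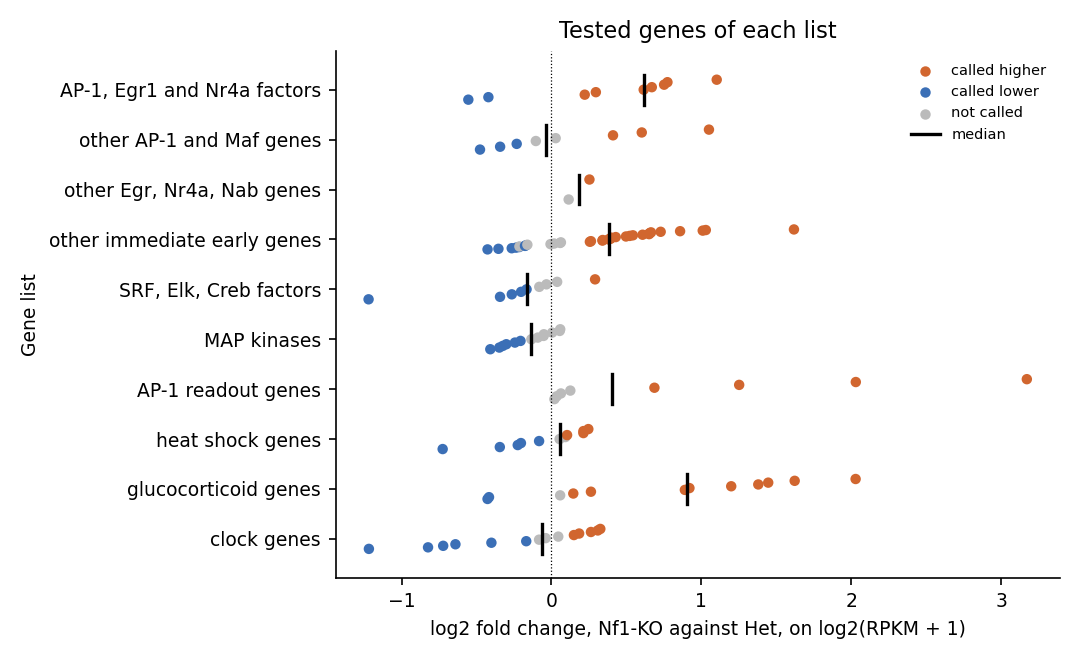
Log2 fold change (Nf1-KO against Het) of every tested gene in the factors described here and in 9 other lists, orange where higher, blue where lower and grey where the threshold was missed, with the median as a bar. Among the AP-1 readouts Mmp13, Mmp9, Timp1 and Ccl2, and among the Egr, Nr4a and Nab genes Nab2, are shown only because Nf1-KO passed the limit. The medians are 0.62 for the factors, 0.38 for other immediate early genes, -0.17 for SRF, Elk and Creb factors and 0.91 for glucocorticoid genes.

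Genes that react to handling, hormone state or time of day were measured beside the factors. The counts are read against all genes tested, of which 24.9% were higher and 25.4% lower. Of 11 heat shock genes, 4 were higher and 5 lower, with a median of 0.05. Hsph1 fell from 7.95 and 7.33 RPKM to 4.50 and 4.54 RPKM, while Hspa1a and Hspa1b did not pass (0.05 and 0.09). The higher ones were Dnajb1, Bag3, Hspd1 and Hspe1 (0.25, 0.21, 0.21 and 0.10). Hsp90aa1, Dnaja1, Hspb1 and Hspa8 were lower as well (-0.34, -0.22, -0.20 and -0.08). Exons of Hspd1, Hspe1, Dnaja1 and Hspa8 overlap those of other genes. Of 12 genes that respond to glucocorticoids, 9 were higher and 2 lower, with a median of 0.91, and 3 of them (Per1, Sgk1 and Cebpd) also stand among the immediate early genes above. Fkbp5, an immunophilin that binds the glucocorticoid receptor complex, rose from 5.67 and 5.52 RPKM to 27.90 and 27.25 RPKM. The 2 lower genes were Tsc22d3 and Cebpd (log2 fold changes -0.42 and -0.43), and Sgk1 did not pass (0.06). Of 14 clock genes tested, 5 were higher and 6 lower, with a median of -0.06. Among the higher ones Per1 is also counted with the glucocorticoid and immediate early genes. Bhlhe41 and Nr1d1 fell by 1.22 and 0.82 on the log2 scale. Hlf, Arntl, Clock and Cry1 were also lower (-0.72, -0.64, -0.40 and -0.17). The 5 higher genes were Per1, Per2, Per3, Cry2 and Nr1d2 (0.26, 0.31, 0.33, 0.18 and 0.15). Exons of Bhlhe41, Nr1d1, Arntl and Cry2 overlap those of other genes. The part of these groups in the changes of the factors was not tested.

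Markers of other cell types differed to unequal extents and are read against the share of all genes tested, 24.9% higher and 25.4% lower. Of the tested macrophage and myeloid markers Cd68, S100a8 and S100a9 needed Nf1-KO to reach the limit, as did some Schwann cell markers, so these lists are counted with no filter, where 11.7% of genes were higher. Of 10 macrophage and myeloid markers 7 were then higher and 3 did not pass, their sum was 10.96 to 11.14 RPKM in Het and 34.93 to 35.48 RPKM in Nf1-KO, mostly Lyz2, and Adgre1 was listed at 0 in all libraries. Fibroblast markers had 7 of 8 higher, with sums of 113.6 to 117.3 RPKM and 175.4 to 177.5 RPKM. Of 8 Schwann cell markers 5 were higher with no filter and 3 did not pass, with sums of 16.07 to 16.44 RPKM and 35.36 to 37.02 RPKM. Endothelial markers had 4 of 8 higher and 2 lower (98.02 to 99.35 RPKM, then 114.0 to 116.3 RPKM). Smooth muscle and pericyte markers had 2 of 6 tested higher and 1 lower (87.85 to 89.19 RPKM, then 111.0 to 112.1 RPKM). Satellite cell markers had 1 of 4 higher (16.42 to 16.91 RPKM, then 18.68 to 19.83 RPKM). Counting both directions, these smooth muscle, pericyte and satellite cell markers were called no more often than all genes tested, of which 50.3% were called. The share of smooth muscle and pericyte markers that were higher, 2 of 6, lay above the 24.9% over all genes tested. Adipocyte markers had 2 of 3 higher (178.4 to 185.3 RPKM, then 266.3 to 268.5 RPKM), and the sums were mostly Fabp4. Fabp4 and Cfd were the higher ones, while Adipoq, at 1.11 and 1.31 RPKM in Het and 0.95 and 1.05 RPKM in Nf1-KO, did not pass. With no filter Lep was lower (limma adjusted p 0.0056), and Plin1 and Retn did not pass. Lymphocyte markers summed to at most 0.38 RPKM in a library, with none tested, and of 8 red cell markers 5 haemoglobin genes (Hba-a2, Hbb-b1, Hbb-b2, Hbb-bs and Hbb-bt) were listed at 0 everywhere and Alas2, the one tested, did not pass. A gene listed at 0 may not have been counted under that name, so these zeros, that of Adgre1 included, do not show absence. Muscle fibre markers had 7 of 8 lower and Myh1 higher, with sums of 58878 to 59153 RPKM in Het and 47643 to 47953 RPKM in Nf1-KO. The part of these cell types in the changes of the factors was not tested.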

How the data were processed

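Total RNA of 4 tibialis anterior libraries was sequenced from a TruSeq RNA version 2 kit, per the labels' protocols. Per the submitters' processing notes, STAR 2.4.2a, DESeq2 and build mm9 were used; the annotation and counting are not given in the sources used here. The authors deposited 1 RPKM value per gene in 34682 rows per library; the unit was read from the values. They also deposited a comparison table whose columns, per the file headers, are a signal (mean normalized count), a log2 fold change with its standard error, a test score, and p-values before and after adjustment. It serves only as the authors' own values.

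Here 33 rows with no gene name were left out and the copy with the highest mean was kept. Genes reaching 0.5 RPKM in 2 or more libraries entered the test; for lists with genes that only Nf1-KO brought over this limit, counts are given with no filter. Libraries were scaled by trimmed log ratios without weights, dropping 30% by ratio and 5% by abundance from either end (factors 0.969, 0.967, 1.03 and 1.03). The test was limma 3.58.1 (R 4.3.3), two-sided, with log2(RPKM + 1) as the response, the variance following the mean level, Benjamini-Hochberg over all 10690 genes, threshold 0.05. The fit was also run on simulated data in which far fewer genes changed than were called here. That run cannot show how the fit behaves when changes are this wide. Depth was estimated from the steps of low values in genes under 400 bases (mean distance from whole reads 0.109 to 0.127), and no intervals rest on it. Alternatives changed the pseudocount, scaling, filter, variance model, copies, threshold and replicate block, and left out each library.

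Gene names were matched to GENCODE M21 for overlaps. The factors and the 19 lists beside them were chosen with earlier results of these data known. Named from each list are up to 4 genes past the threshold with the largest change, genes listed at 0, and a few others for which values are given.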

Additional observations from a re-analysis of the deposited data

How the results depend on the processing

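The 9 tested factors kept their direction in each of the 125 values computed for them under the alternatives, and 123 stayed on the same side of the threshold; Jund and Atf3 lost their calls with no filter on low values, where more genes are tested. The count of factors called was 9 in most settings, 8 at an adjusted p of 0.01 and with at least 1 RPKM in every library, and 7 with no filter. Nf1 stayed lower but lost its call with unscaled values (-0.13), with no filter (-0.19) and with the replicate block (-0.18, limma adjusted p 0.056), and ran from -0.21 to -0.15 when each library was left out, with no call in those fits; the cause was not tested. The difference in the share of Jun within its family was -12.5 percentage points without Jund, an alternative chosen after seeing the data, since Jund leaves the denominator. Replicate numbers gave no pairing (correlation of same-numbered deviations -0.018 across genes), and the block changed no call among the factors. Counts over all genes stayed within 1.5 times of 5372 in the settings run, from 3635 at an adjusted p of 0.01 to 5643 unscaled. With 2 libraries per group, a lone library is assumed to vary like the other group. With no filter the counts of some lists moved by over 1.5 times: endothelial markers from 4 higher and 2 lower to 2 and 1, heat shock genes from 4 higher to 2, satellite cell markers from 1 higher to 0 and other immediate early genes from 7 lower to 4. Mean normalized counts in the authors' deposited table were lowest for Nr4a3, Atf3 and Fos (120, 195 and 200). The Het libraries differed by 0.38 for Atf3 and by 0.093 for Fos on the log2 scale, and the cause of the gap was not tested.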

Other observations

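The ratio of Egr1 to Fos, both known targets of ERK through SRF, was 0.721 and 0.664 in the Het libraries. It was 2.88 and 3.21 in the Nf1-KO libraries, with Egr1 below Fos in Het and above it in Nf1-KO. Egr1 rose and Fos fell in the values given above, so this ratio follows from them and is no separate result. The exact two-sided permutation p was 0.333, the smallest that 2 against 2 can give.

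For the kinase gene Rps6ka3, picked out after its values were seen, the libraries held 5.71, 5.70, 4.57 and 4.56 RPKM, yet the authors' deposited table lists a mean normalized count of 7.24. Its call here (log2 fold change -0.35, limma adjusted p 8.3e-04) has no counterpart there (adjusted p 0.83).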
